A study of Mus musculus with 36 samples.

Results

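The comparison set whole brains of newborn C10 congenic mice against whole brains of newborn A/J mice, with 6 brains of each line, 12 of the 36 arrays of the series. The members were all brains of postnatal day 0.5 titled as C10 congenic or A/J on the Sentrix array, and each array held the RNA of 1 brain. A/J is an inbred strain. The congenic line is written A.B6chr10 in the series text. Under the naming rules for congenic mice this means that B6 material of chromosome 10 was placed on the genome of A/J, and how far it reaches was not stated. The 6 B6 newborn brains, from the other inbred strain, are given as the third line. All mice were untreated. The called genes are grouped below by what their products are known to do, a grouping made after the calls were known. The sex and litter of the brains are not given, so the p-values measure only the spread between these brains.

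In a congenic line a piece of the genome of a donor strain has been bred into a recipient strain. Differences from the recipient strain can lie in genes on that piece, in genes elsewhere that respond to it, or in donor material left on other chromosomes. The series title concerns Rnf41, a ubiquitin ligase gene on chromosome 10 whose protein acts on ErbB receptors.

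The Sentrix Mouse-6 array reads each transcript by a probe on beads, and a deposited signal near 0 is background. A probe was taken as detected in a brain when 1 minus its deposited detection score was under 0.01, and 15883 of 45556 gene probes were detected in at least 6 of the 18 brains. Gene names rest on an inference, that the digits of a probe name which start with 0 are an NCBI Gene ID. Of 14182 such numbers 57.3% were Gene IDs, against at most 32.5% after adding 1 to 50 to each number. The digits that do not start with 0 gave 10.6% against at most 10.8%, and their probes were left unnamed. Names were thereby available for 4147 genes, each represented by its brightest kept probe. Differences are given on the scale of log2(signal + 75), which understates the change of dim probes, and a probe was called when its Benjamini-Hochberg adjusted p from limma was under 0.05.

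Between 14415 and 15737 probes were detected per brain. Of 10 neuronal marker genes with a probe, 8 were detected in all 18 brains, while the probes of Snap25 and Nefl, and those of the astrocyte genes Gfap, S100b and Slc1a2, were undetected in all of them. The summed neuronal signal spanned 51550 to 57370 in congenic brains and 51730 to 57240 in A/J brains. The summed red blood cell signal spanned 24100 to 50790 and 33820 to 53020, and the summed signal of meningeal genes 1450 to 3262 and 2558 to 3405, in congenic and in A/J brains. No member of any cell type list was called between these lines, where 0.844% of all named genes were, so few calls could arise in such short lists. Whether such cells take part in the differences below was not tested.

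A pair of brains stood apart. The Xist probe read 7077 in A/J brain 6 and no more than 23 in any other of the 18 brains. The Y-linked Eif2s3y read −7.3 there and Kdm5d −2.9, so that by these genes A/J brain 6 was female and the other 17 brains male. In congenic brain 3, 160 probes were undetected that were detected in all 17 other brains, and 21 of them had a median signal above 1000 elsewhere. No other brain had more than 1 such bright probe. These dropouts gave most of the large differences that were not called. Of 21 uncalled probes that differed by 1 or more on the log2 scale, all were lower in the congenic line and 20 were undetected in congenic brain 3, among them the probes of Rps13, Naca and Cirbp. Results are therefore also given without these 2 brains.

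The congenic line lay close to A/J in a list of genes picked with earlier results in view, so this closeness was not tested. On this list of 7 measured genes known to differ between the strains, the congenic line differed from A/J by −0.19 to 0.04. None was called, and in H2-K1 B6 was not called against A/J either (0.38, limma adjusted p = 0.179). Prdx2, a peroxidase gene, had a mean signal of 130.2 in congenic brains, 4743 in B6 brains and 158.0 in A/J brains. Cox7a2l, for an assembly factor of respiratory chain complexes, had 322.9 in congenic, 3418 in B6 and 332.1 in A/J brains. The Hbb-b2 probe, for a beta-globin, had 9694 in congenic, 118.6 in B6 and 10800 in A/J brains, although near-identical globin genes can share its signal. The Hbb-b1 probe had B6 on the other side, with 146.7 in congenic, 1618 in B6 and 148.5 in A/J brains.

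In all, 148 probes were called between congenic and A/J brains, which is 0.932% of the probes kept. The signal was higher in the congenic line for 70 probes (0.441%) and lower for 78 (0.491%). The differences were small, with a median size of 0.55 on the log2 scale, and only 2 called probes differed by 1 or more. Of the 148 probes, 106 carried no gene name. Among the named genes, 35 were called (0.844% of 4147), of which 11 were higher (0.265%) and 24 lower (0.579%) in the congenic line. The signals of the 6 congenic and the 6 A/J brains did not overlap in 21 of these 35 genes, against 1.74% of all named genes tested, and in 87 of the 148 probes, against 2.01% of all probes kept. The calls were made on the gap between the same brains, so these shares are no separate evidence for them. Of the 35 called genes, 28 were detected in all 18 brains. Another kept probe was at hand for 6 of them, and none of these was called. Since the lines differ in genome, a variant under a probe and a change in level cannot be told apart here, nor can fewer cells of a type and less RNA per cell.

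**Figure D1:**
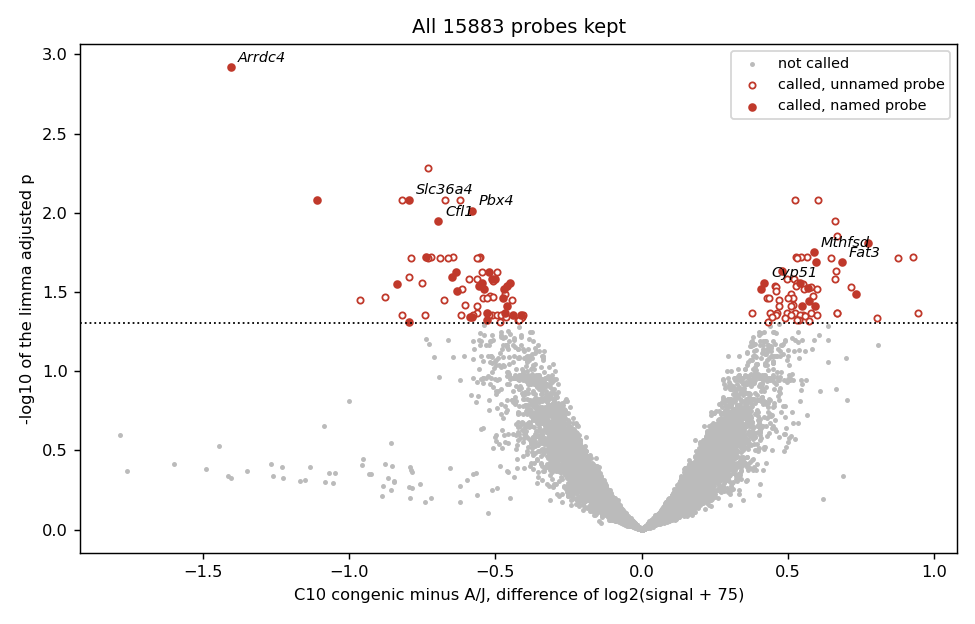
Difference between C10 congenic and A/J brains (x axis, log2 scale, positive when higher in the congenic line) against −log10 of the limma adjusted p (y axis) for the 15883 probes kept, with the dotted line at an adjusted p of 0.05. Arrdc4 lies alone at the upper left with −1.40, the called probes have a median size of 0.55, and the grey points at the far left are uncalled probes of which nearly all were undetected in congenic brain 3.

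Arrdc4, which encodes an alpha-arrestin related to the glucose-responsive protein Txnip, had the largest difference among the called probes and the lowest p of all probes. Its signal ran from 440.1 over a median of 947 to 1046 in congenic brains, and from 1814 over 2165 to 2731 in A/J brains. The lines did not overlap, and the dimmest A/J brain was above every congenic and every B6 brain. The difference was −1.40 (SE 0.183, limma adjusted p = 0.0012), a ratio of 0.378 of the shifted signals. B6 brains, at 722 to 1379, overlapped the congenic range. Their mean lay between those of the lines and near the congenic one, at −1.12 from A/J (SE 0.183, limma adjusted p = 8.09e-05). The congenic difference from B6 was −0.28 (SE 0.183, limma adjusted p = 0.361). The related genes Arrdc3 (0.01) and Arrdc2 (0.30) did not pass the test (limma adjusted p = 0.993 and 0.303).

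The promoter of Arrdc4 is shown because this gene led the comparison. Alpha-arrestin genes of this group are known to be induced by glucose through E-box motifs. The window reads from 250 bases before to 50 bases after the RefSeq start of the gene (chr7:68749189-68749488, minus strand, GRCm38.p6), and capitals mark CACGTG, the palindromic E-box core, and CCAAT, the box bound by NF-Y, written ATTGG where it lies on the other strand.
Arrdc4 promoter: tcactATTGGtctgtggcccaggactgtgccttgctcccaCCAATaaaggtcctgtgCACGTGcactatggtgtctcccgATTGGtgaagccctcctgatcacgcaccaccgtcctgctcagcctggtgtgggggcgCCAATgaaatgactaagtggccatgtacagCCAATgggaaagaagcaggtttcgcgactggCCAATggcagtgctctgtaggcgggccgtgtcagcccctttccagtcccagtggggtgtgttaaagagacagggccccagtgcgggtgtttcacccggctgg
The E-box core occurred once, starting 193 bases before the start, and CCAAT 6 times on both strands together, with no overlap between them. Of all 32851 promoter windows of this length, 7.15% held CACGTG and 37.4% held CCAAT on either strand. The arrays do not read the promoter, and these matches are a description of the reference sequence.

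Transporters, receptors and adhesion genes changed in both directions. Slc36a4, an amino acid transporter gene, had signals of 114.5, 195.6 and 224.8 (lowest, median, highest) in congenic brains and of 279, 352.9 and 471.7 in A/J brains. The lines did not overlap, with a difference of −0.80 (SE 0.132, limma adjusted p = 0.00827), and B6 brains (130.4 to 213.7) lay within the congenic range. Another solute carrier gene, Slc45a4, was higher in the congenic line, with 559.9, 665.2 and 688.6, against 344.5, 420.4 and 513.7 in A/J brains (0.54, SE 0.114, limma adjusted p = 0.0276). Again the lines did not overlap. B6 brains ran from 506 to 832.4 (median 729.8) and spanned the congenic range, with only their mean beyond that of the congenic line. Fat3, for an atypical cadherin that shapes dendrites in the mouse retina, was higher in the congenic line, with 712.1, 987.8 and 1132 against 447.6, 572.3 and 701 in A/J brains. The difference was 0.68 (SE 0.137, limma adjusted p = 0.0206), and every congenic brain lay above every A/J brain. B6 brains ran from 490.4 to 980.5 (median 837.1) and overlapped both lines. Their mean lay between those of the lines, at 0.43 from A/J (limma adjusted p = 0.0303). The other 6 measured genes of its list, the planar polarity genes among them, did not pass the test and spanned −0.23 to 0.03.

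Cnr1, the cannabinoid receptor gene of neurons, was close to background. Its signals were 53.5, 67.4 and 97.9 in congenic brains and 86.1, 157.4 and 190.9 in A/J brains, the probe being detected in 1 congenic brain and in 5 A/J brains. The ranges overlapped, and the difference was −0.63 (SE 0.129, limma adjusted p = 0.0236). In B6 the probe was detected in 3 of 6 brains and lay at −0.46 from A/J (limma adjusted p = 0.0153). The Cnr1 probe passed the filter on detection only with the A/J brains, where it was highest. Both of its p-values are therefore set against signals near background. The other measured endocannabinoid genes, Daglb (−0.05) and Faah (0.28), did not pass the test. Lrfn1, for a synaptic adhesion protein, was as dim, with detection in 1 of 6 congenic, 6 of 6 B6 and 5 of 6 A/J brains (−0.53, limma adjusted p = 0.0427). Its probe was kept through the B6 and A/J brains, so this p-value is set against congenic background. Jam2, for a junctional adhesion molecule, was lower by its brightest probe (−0.50, limma adjusted p = 0.0262), while its other kept probe differed by −0.09 (limma adjusted p = 0.774).

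**Figure D2:**
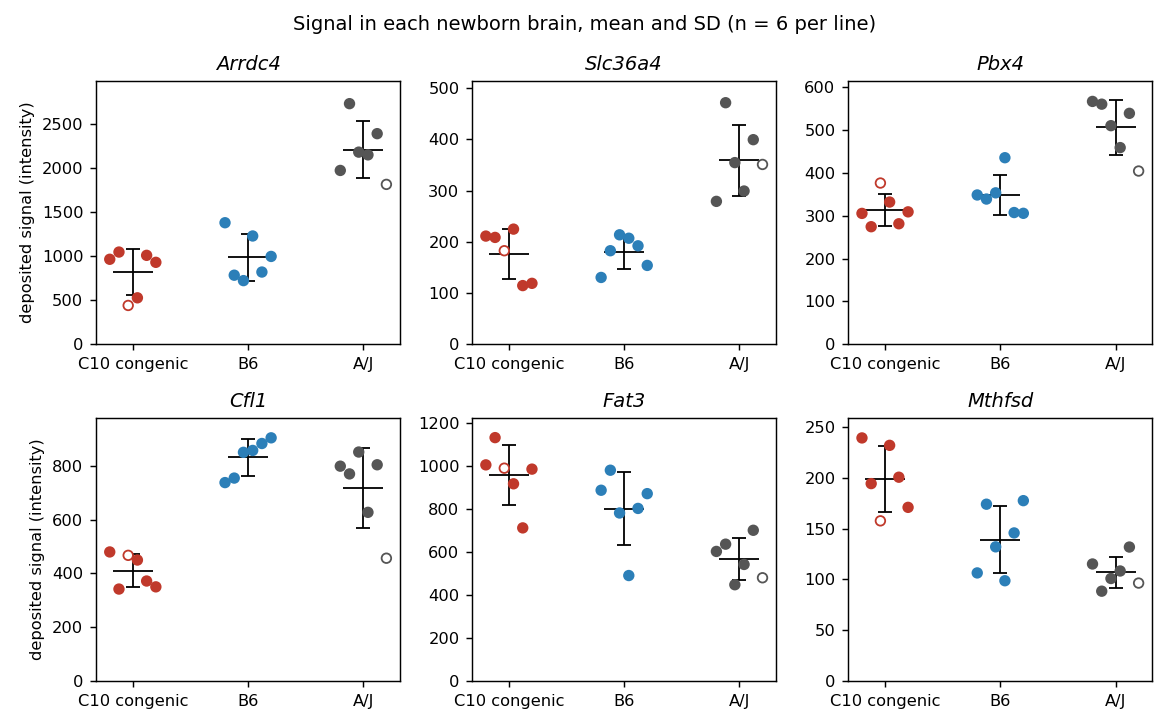
Deposited signal (y axis, intensity from 0) of 6 called genes in each C10 congenic, B6 and A/J brain, with points for brains, bars for the mean and SD (n = 6), and open points for congenic brain 3 and A/J brain 6. Arrdc4, Slc36a4 and Pbx4 are low in both the congenic and B6 lines, Cfl1 is low in the congenic line alone with A/J brain 6 at 456.3, and Fat3 and Mthfsd are highest in the congenic line.

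A pair of actin regulators were called in opposite directions, and in both the B6 mean was nearer to that of A/J. Cfl1 encodes cofilin, which severs actin filaments. Its signals were 341.6, 410.5 and 479.6 in congenic brains and 456.3, 784.2 and 851.2 in A/J brains, a difference of −0.70 (SE 0.123, limma adjusted p = 0.0113). A/J brain 6 alone overlapped the congenic range, and without it the difference was −0.81 (limma adjusted p = 0.000451). B6 brains, at 737.5 to 904, were far from the congenic line, which lay at −0.91 from them (SE 0.123, limma adjusted p = 6.26e-06). Dmtn, for the actin-bundling protein dematin, was higher in congenic brains, at 2071, 2437 and 2684, than in A/J brains, at 1158, 1688 and 1890. The lines did not overlap (0.57, SE 0.130, limma adjusted p = 0.0361), and the congenic line lay 0.72 above B6 (limma adjusted p = 0.000312). The other 5 measured actin regulators, Pfn1 (−0.18) and Limk2 (0.30) among them, did not pass the test against A/J.

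Regulators of transcription and chromatin were likewise grouped after the calls, with no test of the group. Pbx4, a homeobox gene, had signals of 274.3, 307.2 and 376.3 in congenic and 404.3, 524.6 and 566.8 in A/J brains. The lines did not overlap (−0.58, SE 0.101, limma adjusted p = 0.00969), and B6 lay between them at −0.46 from A/J. Its relatives Pbx3 and Pknox1 differed by −0.10 and −0.03 and did not pass the test. The zinc finger gene Zfp787 was at 206.9 to 306.9 in congenic and at 312.5 to 620.1 in A/J brains (−0.84, SE 0.179, limma adjusted p = 0.0283), with A/J brain 6 the lowest of its line. In B6 it ranged from 126.1 to 504, beyond the congenic line in the mean. Zmiz1, for a transcriptional coactivator, was at −0.53 (limma adjusted p = 0.0477). The histone gene H3c4 was at −0.58 (limma adjusted p = 0.0456), with detection in 4 of 6 congenic brains, and near-identical histone genes can share its signal. Med14, for a Mediator subunit, was higher at 0.59 (limma adjusted p = 0.0390).

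The 2 called members of the Pur family, which bind purine-rich single-stranded nucleic acids, went opposite ways. Purb was lower, with 413.5, 533.8 and 809.5 in congenic against 693, 771.2 and 1266 in A/J brains (−0.59, SE 0.142, limma adjusted p = 0.0456). The ranges overlapped, and B6 (median 734.8) lay between them near A/J. Purg was higher, with 56.9, 94.2 and 166.3 in congenic against −7.7, 26.3 and 90.2 in A/J brains. It was detected in 3 of 6 congenic, 6 of 6 B6 and 0 of 6 A/J brains, and so was kept only through the congenic and B6 brains. The fitted difference from A/J was 0.73 (limma adjusted p = 0.0324), but since A/J has only a bound the signal was at least 1.07-fold higher in the congenic line and at least 1.29-fold higher in B6. For that bound each A/J array entered, on the normalised scale, with the lowest signal of any detected probe or with its own signal, whichever was higher.

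A further group, put together after the calls and not a tested list, has to do with translation and protein turnover. Its 5 genes were lower in the congenic line, as were 24 of all 35 called genes. Eif4e, for the cap-binding translation factor, had 579.5, 774.5 and 805.6 in congenic against 868.6, 1108 and 1189 in A/J brains (−0.47, SE 0.110, limma adjusted p = 0.0432). Its relative Eif4e2, for a cap-binding protein that represses translation, had 996.8, 1070 and 1256 in congenic against 1471, 1498 and 1581 in A/J brains (−0.45, SE 0.0961, limma adjusted p = 0.0277). Neither gene overlapped between the lines. B6 lay between them for Eif4e and beyond A/J for Eif4e2, from which the congenic line was at −0.56 (limma adjusted p = 0.000162). The other kept probe of Eif4e2 differed by −0.15 (limma adjusted p = 0.488). Dnajb12, for a chaperone partner in the membrane of the endoplasmic reticulum, was at −0.56 (limma adjusted p = 0.0292), and Sel1l, an adaptor of degradation from the same compartment, at −0.44 (limma adjusted p = 0.0440). The 7 other measured chaperone genes did not pass the test and spanned −0.13 to 0.23. Brcc3, for a deubiquitinase, was at −0.52 (limma adjusted p = 0.0237) by its brightest probe and at 0.15 (limma adjusted p = 0.633) by its other one, so its probes disagreed in sign.

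The remaining called genes that were lower comprised the kinases Csnk1e (−0.46), which acts on clock proteins, and Rps6ka3 (−0.46), a ribosomal S6 kinase, the centriole gene Odf2 (−0.55), the RNA-binding protein gene Habp4 (−0.47), Soga1 (−0.80), the opposite-strand transcript Cep83os (−0.47) and the clone gene 1110038B12Rik (−0.54). Their limma adjusted p lay between 0.0276 for Odf2 and 0.0489 for Soga1. Rps6ka3 was close to background, with detection in 4 of 6 congenic, 5 of 6 B6 and 6 of 6 A/J brains. Odf2 had another kept probe, at −0.49 (limma adjusted p = 0.092), and that of Csnk1e was at −0.18 (limma adjusted p = 0.487). Those higher were Mthfsd (0.59), A330102I10Rik (0.77) and 2610316D01Rik (0.55). The last was detected in 6 of 6 congenic and 6 of 6 B6 brains but only in brain 6 of A/J, so it is set against background. Mthfsd, named for a folate enzyme domain, had 157.7, 197.6 and 239.4 in congenic against 88.4, 104.6 and 131.9 in A/J brains, with no overlap (SE 0.109, limma adjusted p = 0.0177). B6 brains (98.7 to 177.6) overlapped the congenic range, and the congenic mean lay 0.36 above theirs (limma adjusted p = 0.0304).

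Cholesterol synthesis was the one pathway list with more than 1 called gene in the same direction. Cells build cholesterol from acetyl units through mevalonate, isoprenoids, squalene and lanosterol, and the newborn brain makes its own, since blood cholesterol hardly enters it. The list, chosen with earlier results of these data known, has 9 measured enzymes, of which 3 were higher, none was lower and 8 had a positive difference. Over all 4147 named genes tested 0.265% were called higher and 1727 had a positive difference. The median of the enzymes was 0.42, against −0.04 over all named genes. The values of 7 of these enzymes are given here.

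Cyp51, the lanosterol demethylase, had 2215, 2670 and 2879 in congenic against 1702, 1971 and 2086 in A/J brains. Every congenic brain was above every A/J brain (0.42, SE 0.0893, limma adjusted p = 0.0276), and the other kept probe of the gene was at 0.27 (limma adjusted p = 0.162). Lss, the lanosterol synthase, which lies on chromosome 10, had 198, 297.8 and 371.3 in congenic against 151.9, 175.1 and 220.1 in A/J brains (0.57, SE 0.124, limma adjusted p = 0.0298). Its ranges met only through congenic brain 3, the lowest of its line, and A/J brain 6, the highest of its line. B6 was at 0.51 from A/J for Cyp51 (limma adjusted p = 0.000181) and at 0.41 for Lss (limma adjusted p = 0.0244).

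Enzymes that did not pass the test were Idi1 (0.49, limma adjusted p = 0.318), Nsdhl (0.47, 0.109), Tm7sf2 (0.45, 0.0891), Hmgcs1 (0.37, 0.201) and Fdps (0.36, 0.117). A dimmer probe of Nsdhl, which removes a carbon from the sterol ring, was called at 0.48 (limma adjusted p = 0.0235). The measured regulators and carriers of sterols, Srebf2 (0.13), Insig1 (0.08), Stard4 (0.35), Lrp1 (0.07), Apoe (−0.06) and Abcg1 (−0.11), did not pass the test either. The count of enzymes called moved with single brains. It was 5 without A/J brain 6 and 6 without A/J brain 6 and congenic brain 3, but 0 when congenic brains 2, 4 or 6 or A/J brains 1, 2, 3, 4 or 5 were left out in turn, and 1 without congenic brain 5. It was 3 without congenic brain 1 and 3 without congenic brain 3, although Cyp51 did not pass without the last of these (limma adjusted p = 0.05).

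**Figure D3:**
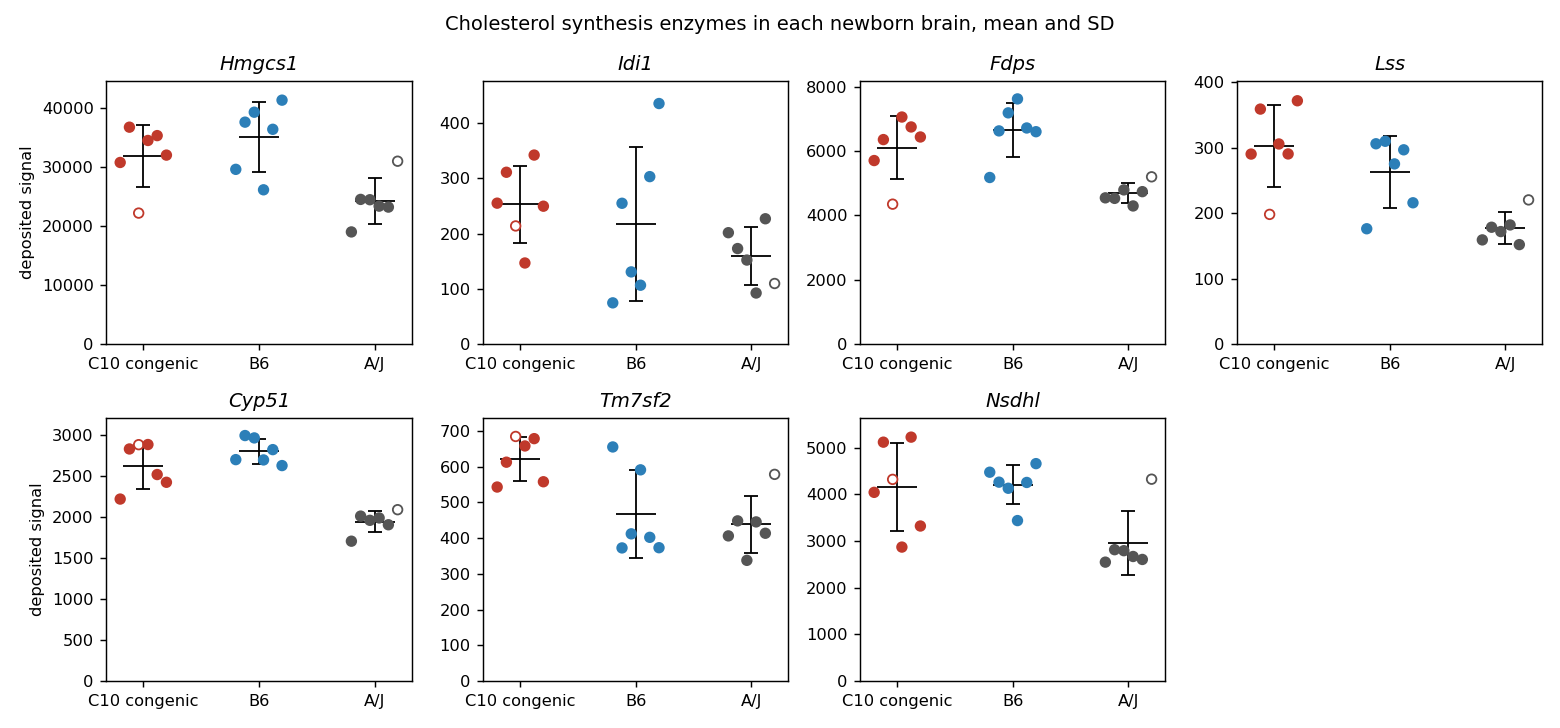
Deposited signal (y axes, intensity from 0) of 7 of the 9 measured cholesterol synthesis enzymes in each C10 congenic, B6 and A/J brain, with points for brains, bars for the mean and SD (n = 6), and open points for congenic brain 3 and A/J brain 6. The congenic and A/J lines do not overlap for Cyp51, and for Lss they meet through congenic brain 3 (198) and A/J brain 6 (220.1).

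Promoters of 3 enzymes are shown because genes of this pathway are known to be driven together by sterol regulatory element-binding proteins with NF-Y. Each window reads from 250 bases before to 50 bases after the RefSeq start in GRCm38.p6, for Lss at chr10:76531355-76531654 (plus strand), Cyp51 at chr5:4104648-4104947 (minus strand) and Hmgcs1 at chr13:119690101-119690400 (plus strand). Capitals mark CCAAT on either strand and, in Hmgcs1, TCACNCCAC, a sterol regulatory element core.
Lss promoter: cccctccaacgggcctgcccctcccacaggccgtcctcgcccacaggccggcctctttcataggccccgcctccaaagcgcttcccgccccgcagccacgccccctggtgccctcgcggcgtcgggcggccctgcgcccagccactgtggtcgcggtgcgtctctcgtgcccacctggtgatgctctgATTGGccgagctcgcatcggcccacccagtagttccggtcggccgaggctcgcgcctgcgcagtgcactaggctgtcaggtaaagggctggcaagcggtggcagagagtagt
Cyp51 promoter: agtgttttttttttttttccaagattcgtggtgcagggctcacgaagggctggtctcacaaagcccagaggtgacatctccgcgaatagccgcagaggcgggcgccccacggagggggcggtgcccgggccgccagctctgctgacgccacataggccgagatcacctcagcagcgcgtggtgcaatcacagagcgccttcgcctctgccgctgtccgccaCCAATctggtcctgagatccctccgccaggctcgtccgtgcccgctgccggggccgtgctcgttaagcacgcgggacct
Hmgcs1 promoter: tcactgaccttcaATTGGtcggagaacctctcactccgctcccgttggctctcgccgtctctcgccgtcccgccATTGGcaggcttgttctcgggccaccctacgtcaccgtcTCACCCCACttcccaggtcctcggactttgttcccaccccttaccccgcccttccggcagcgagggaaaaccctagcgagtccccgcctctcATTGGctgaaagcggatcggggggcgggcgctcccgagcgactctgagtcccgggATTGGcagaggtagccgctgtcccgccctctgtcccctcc
Promoter windows were at hand for 6 of the 9 enzymes. CCAAT was in all 6 on either strand, against 37.4% of all windows, and TCACNCCAC in 1 of 6, against 1.24%. In Hmgcs1, whose signal did not pass the test, the element starts 137 bases before the start of the gene. A window without a match says only that these letters are not in it.

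The place of B6 was read for every called gene from the line means of log2(signal + 75), and the plot of both differences shows 33 of the 35. The B6 mean lay between the congenic and A/J means in 18 genes, beyond the congenic mean in 11 and beyond the A/J mean in 6, and it was nearer to the congenic mean in 26 of 35. Over all 15883 probes kept it was between in 26.0% and nearer to the congenic mean in 8308. The genes were called on the gap between congenic and A/J brains, and the same A/J brains stand in both differences, so the place of B6 was not tested. Between B6 and A/J 15.3% of the named genes were called, and between the congenic line and B6 10.4%.

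Genes in which the congenic line and B6 lay together away from A/J included Slc36a4 (−0.80 in the congenic line and −0.76 in B6, as differences from A/J), Soga1 (−0.80 and −0.81), Csnk1e (−0.46 and −0.44), Brcc3 (−0.52 and −0.58), A330102I10Rik (0.77 and 0.80) and Med14 (0.59 and 0.53). B6 was called against A/J in each of these 6 and not against the congenic line. By the other kept probe B6 was at −0.02 from A/J for Csnk1e (limma adjusted p = 0.948). For Brcc3 it was at 0.15 by the other probe (limma adjusted p = 0.524), so in these 2 genes the pattern rests on 1 probe. In 7 called genes B6 was called against the congenic line and not against A/J. These were Cfl1, Zmiz1, Lrfn1, Habp4 and Eif4e2, lower in the congenic line, and Dmtn and Mthfsd, higher in it. The B6 differences from A/J were 0.21, 0.28, 0.02, 0.04, 0.11, −0.15 and 0.23 in that order. The Lrfn1 probe was detected in 1 of 6 congenic brains, so its calls are set against background. In Purb, Dnajb12, Eif4e, Rps6ka3 and Sel1l, B6 was called against neither line and its mean lay between them.

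**Figure D4:**
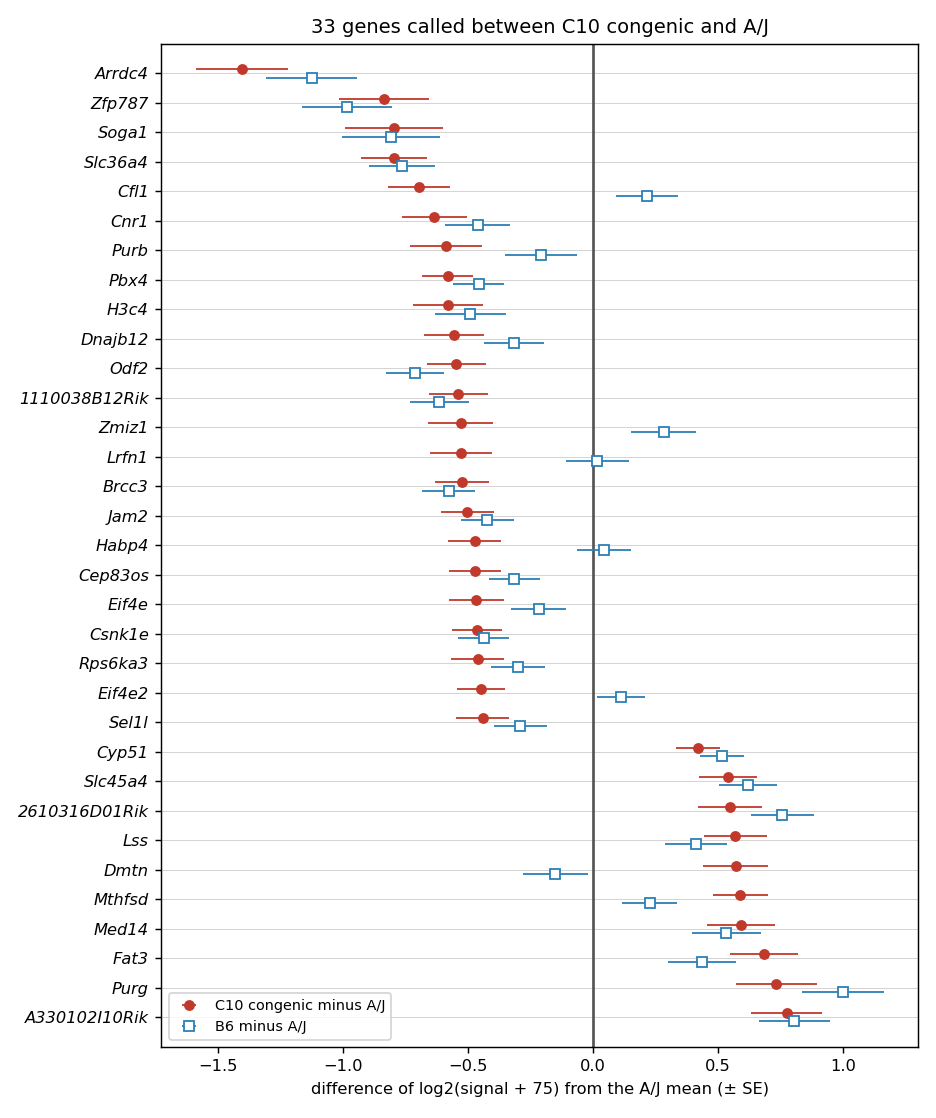
Differences from the A/J mean (x axis, log2(signal + 75), bars ± SE) for 33 of the 35 called genes, with filled circles for C10 congenic minus A/J and open squares for B6 minus A/J, ordered by the congenic difference. The squares lie near the circles for genes such as Slc36a4 and Soga1 and near 0 or on its other side for Cfl1, Zmiz1, Lrfn1, Habp4, Eif4e2 and Dmtn.

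By chromosome, the called genes were spread over all autosomes but chromosome 6 and over the X. Chromosome 10 held 3 of them among 174 genes tested (1.72%), against 32 of 3973 on the others (0.805%). The share was larger on chromosome 13, with 4 of 159 (2.52%), and on the X, with 3 of 132 (2.27%). The 3 on chromosome 10 were Lss, higher in the congenic line, and Dnajb12 and Cep83os, lower. Dnajb12 had 53.9, 106.3 and 120.6 in congenic against 139.7, 188.4 and 199.2 in A/J brains, with no overlap, and B6 between them. Cep83os had 280.8, 311.3 and 409.5 in congenic against 409.1, 500.1 and 510.8 in A/J brains, which met at A/J brain 6. The median size of the differences was 0.125 over the chromosome 10 genes and 0.116 over the others, on the log2 scale.

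Rnf41 itself was not called. Its detected probe had 113, 146.1, 204.9, 169.9, 210.3 and 223.1 in congenic brains 1 to 6 and 85.1, 63.5, 131.4, 128.6, 140.8 and 176 in A/J brains 1 to 6. The ranges overlapped, with congenic brains 3, 5 and 6 above all A/J brains, and the difference was 0.38 (SE 0.145, limma adjusted p = 0.209). The exact two-sided permutation test of this gene alone over 924 splits gave p = 0.0455 (smallest possible 0.00216), and between 0.0173 and 0.0909 when each brain was left out. B6 brains, at 187.8 to 341.4, lay above all A/J brains and partly above the congenic ones. The Rnf41 probe was dim, and the other probe of the gene was undetected. None of the other 10 measured genes of its neighbourhood was called, against 0.844% of all named genes tested, Baz2a having −0.56 (limma adjusted p = 0.118).

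On the X chromosome 3 of 132 genes tested were called (2.27%), against 0.844% of all named genes tested. Their differences were also read without the female A/J brain 6. Brcc3 was at −0.60 without that brain (limma adjusted p = 0.00414), Rps6ka3 at −0.54 (limma adjusted p = 0.00697) and Med14 at 0.63 (limma adjusted p = 0.0266), each somewhat larger than with it. Autosomal differences moved as well, that of Soga1 from −0.80 to −0.90 and that of Slc45a4 from 0.54 to 0.49. Whether the sex of that brain plays a part was not tested.

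The calls depended on single brains. In 20 of the 35 genes A/J brain 6 was the A/J brain nearest to the congenic mean, and in 19 congenic brain 1 was the congenic brain nearest to the A/J mean. Leaving out A/J brain 6 gave 288 called probes and 62 called genes, 33 of them among the 35. Leaving out congenic brain 1 gave 228 probes, and any other brain between 17 and 97. Without congenic brain 3, 97 probes were called and 22 of the 35 genes remained, and without both brains that stood apart 211 probes and 49 genes, 27 of the 35 among them. Arrdc4, Slc36a4, Pbx4 and Cfl1 were called in all 12 fits without 1 brain, Mthfsd in 11 and A330102I10Rik in 10. Only 9 of the 35 genes were called in 6 or more of these fits. Genes called in only 2 included Dmtn, Eif4e, Med14, Habp4, Zmiz1 and Lrfn1, and Purb and H3c4 were called in 1. In those 12 fits the difference of Arrdc4 ran from −1.48 to −1.26.

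**Figure D5:**
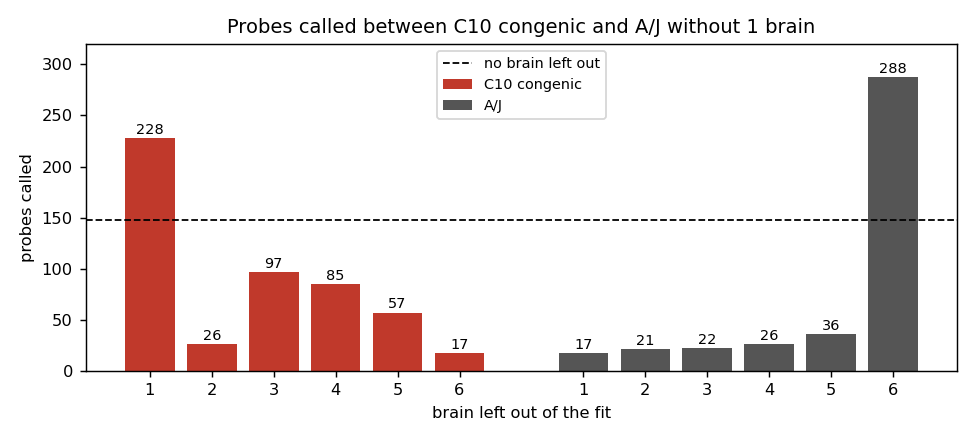
Number of probes called between C10 congenic and A/J brains (y axis) when 1 brain is left out of the fit (x axis, brain number within its line), with the dashed line at the 148 probes called with every brain. The count is above the line without congenic brain 1 (228) or A/J brain 6 (288) and below it without any of the other 10 brains, down to 17.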

How the data were processed

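The Sentrix files hold, per probe, the signal the authors deposited, an intensity that falls to −59 after background subtraction, and a deposited detection score, a fraction whose complement was read as a detection p. BeadStudio is named, without a version, in the submitters' processing notes. Array medians lay between 27.1 and 27.7, so the signals were already scaled when deposited. The authors' series table was identical to the array files. Chips and batches are not given in the labels.

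From these, log2(signal + 75) was quantile normalized over the 18 newborn arrays, 560 control and custom probes were left out, and probes detected (p under 0.01) on 6 or more arrays were kept. Limma 3.58.1 (lmFit and eBayes, R 4.3.3) fitted 1 mean per line over all 3 lines. Two-sided p-values were adjusted by Benjamini-Hochberg over all 15883 probes. Named genes called at 0.05 are given by name, since there were no more than 40, with Rnf41 and the sex-linked genes. Permutation tests used scipy 1.17.1. The members and gene lists were chosen with earlier results of these data known. In data simulated for this comparison over 15883 probes, the fit recovered 95 of 100 probes changed by 1 on the log2 scale and 53 of 100 changed by 0.5, with 8 false calls. The simulation drew independent normal noise around 1 mean for all lines, without B6 differences or brains that stand apart. Its counts are therefore no measure of the real calls, which moved with single brains. A few genes are not reported here by name, though counts include them. Names, chromosomes and promoters are from RefSeq tables of GRCm38.p6. Alternatives were other shifts, normalizations, filters and fits, and leaving out brains.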

Additional observations from a re-analysis of the deposited data

Results flagged for a closer look

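Within lines of 6 brains, 117 groups were screened for a brain far from the rest by Dixon's ratio, which chance passes in about 1 group of 20, and 16 passed. A/J brain 6 was the odd brain in 8 of them. Its signal was highest in A/J for Xist (7076.6), A330102I10Rik (483.2) and 2610316D01Rik (139.1), and lowest for Eif2s3y (−7.3), Kdm5d (−2.9), Zfp787 (312.5), Brcc3 (455.1) and Cep83os (409.1). In the 5 called genes among these that brain lay toward the congenic values. A/J brain 1 was high for Habp4 (433.2) and low for Med14 (660). In the congenic line, brain 4 was low for Eif4e (579.5) and brain 6 high for Purb (809.5). In B6, brain 1 was high for Odf2 (340.1) and Zfp787 (504), brain 4 high for Pbx4 (435.4) and brain 5 high for Eif2s3y (2112.1).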

How the results depend on the processing

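The counts moved with the processing, while none of the 35 called genes turned its sign under any alternative run. Leaving out 1 brain gave 17 to 288 probes, 6 to 62 genes and 0 to 5 chromosome 10 genes, against 148, 35 and 3. Setting signals under 16 to 16 gave 88 probes. Without a filter on detection 1 probe, that of Arrdc4, was called (1 gene, 0 on chromosome 10), with 45556 probes tested. A fit of the congenic and A/J arrays alone called 276 probes, 73 genes and 5 genes on chromosome 10, and the cause was not tested. Deviations of same-numbered congenic and A/J brains correlated with r from 0.042 to 0.333, all positive, and 1 of 6 matched best with its own number. Whether brains of the same number share a chip or batch cannot be told from the labels, and the main fit had no replicate block. With the replicate block 224 probes and 61 genes were called. Leaving out A/J brain 6 and congenic brain 3, chosen after seeing the data, gave 5 genes on chromosome 10. A shift of 150, no further normalization, an intensity trend and a filter over 12 arrays gave 142 to 164 probes and 34 to 42 genes, and counting any kept probe of a gene gave 42. Arrdc4 alone was called in all 8 of these other settings and all 12 fits without 1 brain. At an unadjusted p under 0.05 there were 2419 of the 15883 probes kept. Rnf41 was called under none, with adjusted p from 0.0684 (replicate block) to 0.481 (no filter). Precision is limited by 6 brains a line, and at signals near 100 by background.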

Other observations

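Besides the 35 genes called by their brightest probe, 7 named genes had a dimmer probe that was called while their brightest one was not, a choice of genes made after their values were seen. The brightest probes of 6 of them differed by −0.11 to 0.14, and that of Nsdhl by 0.47. Ccdc88c, for a protein of Wnt signalling, was at 144.8 to 310.4 in congenic brains, 43.1 to 154.9 in B6 brains and 305.9 to 771.3 in A/J brains. The congenic line was at −1.11 from A/J (SE 0.186, limma adjusted p = 0.00827) by this probe, and at 0.09 (limma adjusted p = 0.728) by the brightest one, the opposite sign. In B6 the probe was detected in 1 of 6 brains, so that the fitted congenic difference from B6, 1.04 (limma adjusted p = 0.000264), is set against background. Pcdh10, a protocadherin gene, was at −0.74 from A/J (limma adjusted p = 0.0189), Usp1, for a deubiquitinase of DNA repair, at −0.65 (limma adjusted p = 0.0253), Spock1, a proteoglycan gene, at −0.63 (limma adjusted p = 0.0310, detected in 2 of 6 congenic brains) and Ctsb, for the lysosomal protease cathepsin B, at −0.41 (limma adjusted p = 0.0440). Ssbp1, for the single-stranded DNA-binding protein of mitochondria, had signal above background in no A/J brain and in 5 of the 6 congenic brains. Its fitted difference was 0.60 (limma adjusted p = 0.0206). By the same bound as for Purg, the signal was at least 1.11-fold higher in the congenic line. The probes of Ssbp1 and Purg were kept only through congenic and B6 brains, so their p-values are set against A/J background. Nsdhl was higher at 0.48.

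Over all named genes 0.844% were called, so few calls could arise in short lists. No gene of the GABA (3 measured), glutamate (7), stress and anxiety (4) or channel and seizure (6) lists was called between congenic and A/J brains. Those nearest to a call were Cacna1c, a calcium channel gene, with a mean signal of 339.7 in congenic and 500.8 in A/J brains (−0.48, limma adjusted p = 0.0612), and Grin1, for an NMDA receptor subunit, with 87.7 and 158.5 (−0.52, limma adjusted p = 0.0805). Cckbr, for a cholecystokinin receptor, had 223.4 in congenic, 339.9 in B6 and 142.8 in A/J brains, and its difference of 0.47 between congenic and A/J brains did not pass (limma adjusted p = 0.142).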
